A study of Mus musculus with 12 samples.

Results

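Loci in which several m6A regions were called at 2 weeks of age and not at 6 weeks were examined in mouse hippocampus. Overlapping peaks of the 4 deposited lists (1 bp or more in common) formed a region, and regions with under 10000 bp between them formed a locus, leaving out chromosomes M and Y. A 2-week-only region was called in both 2-week lists and in neither 6-week list, and a 6-week-only region the reverse. The loci kept had 3 or more 2-week-only regions and no 6-week-only region. They held 585 such regions in 161 loci, of 70674 merged regions in all. These were 13% of the 4499 2-week-only regions outside chromosomes M and Y. The regions were chosen by the calls themselves, that is by the tag, fold and p minimums of each list, so their calls and levels are described here without a test.

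N6-methyladenosine (m6A) is a methyl mark on adenosines within RNA. A writer complex built around METTL3 and METTL14 places it, the demethylases FTO and ALKBH5 can remove it, and YTH-domain proteins bind it and alter the splicing, translation or decay of the RNA. It lies most often near stop codons and in long exons, and it is abundant in brain RNA during postnatal maturation.

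Both groups were hippocampi of wild-type male C57BL/6 mice, aged 2 weeks or 6 weeks, with 2 m6A-immunoprecipitated (IP) libraries per age. In m6A-IP, an antibody against m6A pulls fragments of poly(A)+ RNA out of solution, and a peak is a window with more sequence tags than the control of unselected fragments (the input). No label says which animals, or how many, gave each of the 2 biological replicates of an age, so p-values measure the spread between these samples, which may be technical. Hippocampus is a mixture of cell types, and fewer cells of a type cannot be told apart from less RNA per cell. Positions are in the mouse build mm9. Gene names, RNA sequences and marker genes of the tissue were not used here, since no gene annotation of that build was at hand.

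At 2 weeks the lists had 39259 and 39105 peaks, at 6 weeks 33239 and 36494. If the deposited signal is per 10 M tags (M, mega), the default of HOMER, IP depth was 23.4 and 23.0 M at 2 weeks, then 16.1 and 16.5 M at 6 weeks. Control depth was 29.3 and 16.8 M, then 15.8 and 11.7 M. The 2-week libraries were thus deeper in IP, and depth and age cannot be told apart in this design. The lists hold called peaks only, so the level of a 2-week-only region in the 6-week libraries is not known. Its absence there means that it was not called.

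The 161 loci were spread over 20 chromosomes. Chromosomes 2, 7 and 18 had the most, with 12 loci each and 39, 43 and 48 of the regions, and chromosome 12 had the fewest, with 2 loci and 6 regions. These numbers were not set against all regions called on each chromosome, so they show no excess on any. Most loci were small: 109 had 3 of the regions, 35 had 4, and 17 had 5 or more. The regions were 100 to 367 bp wide, with a median of 126 bp. Neighbouring regions of a locus lay a median of 595.5 bp apart, and 100 of the 424 gaps were under 200 bp. Just outside the rule lay 485 loci with 2 2-week-only regions and no 6-week-only region. A further 17 loci had 3 or more but were left out for a 6-week-only region. The largest of these, on chromosome 18 from 37867312 to 37928067, had 8 regions called at 2 weeks only and 1 called at 6 weeks only. The reverse kind, with 3 or more 6-week-only regions and no 2-week-only region, numbered 9 loci. These counts depend on having both libraries of an age. With 6-week replicate 2 as the only 6-week list, 681 loci were of the reverse kind against 208 of the kind described here, and with 6-week replicate 1 alone 481 against 232. With 2-week replicate 2 alone they were 13 against 702, and with 2-week replicate 1 alone 14 against 926.

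The loci differed in how many 6-week peaks they held. Counting all peaks in them, whatever their pattern, the 2-week lists had 1627 and 1416 and the 6-week lists 496 and 567. These were 4.17% and 3.63% of the 2-week lists and 1.49% and 1.56% of the 6-week lists. The totals include the 585 regions, which the rule put in both 2-week lists and in neither 6-week list. The excess at 2 weeks is therefore in part fixed by the choice. In 45 loci, with 150 of the regions, neither 6-week list had a peak anywhere in the locus. These were short, with a median length of 1.76 kb against 8.50 kb for all 161, and held 237 and 211 2-week peaks. In 27 loci only 1 of the 6-week lists had a peak, and in 89 both did. In 78 loci, with 290 of the regions, at least 1 region was called in all 4 lists, so that regions called at both ages stood beside regions called at 2 weeks only.

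**Figure D1:**
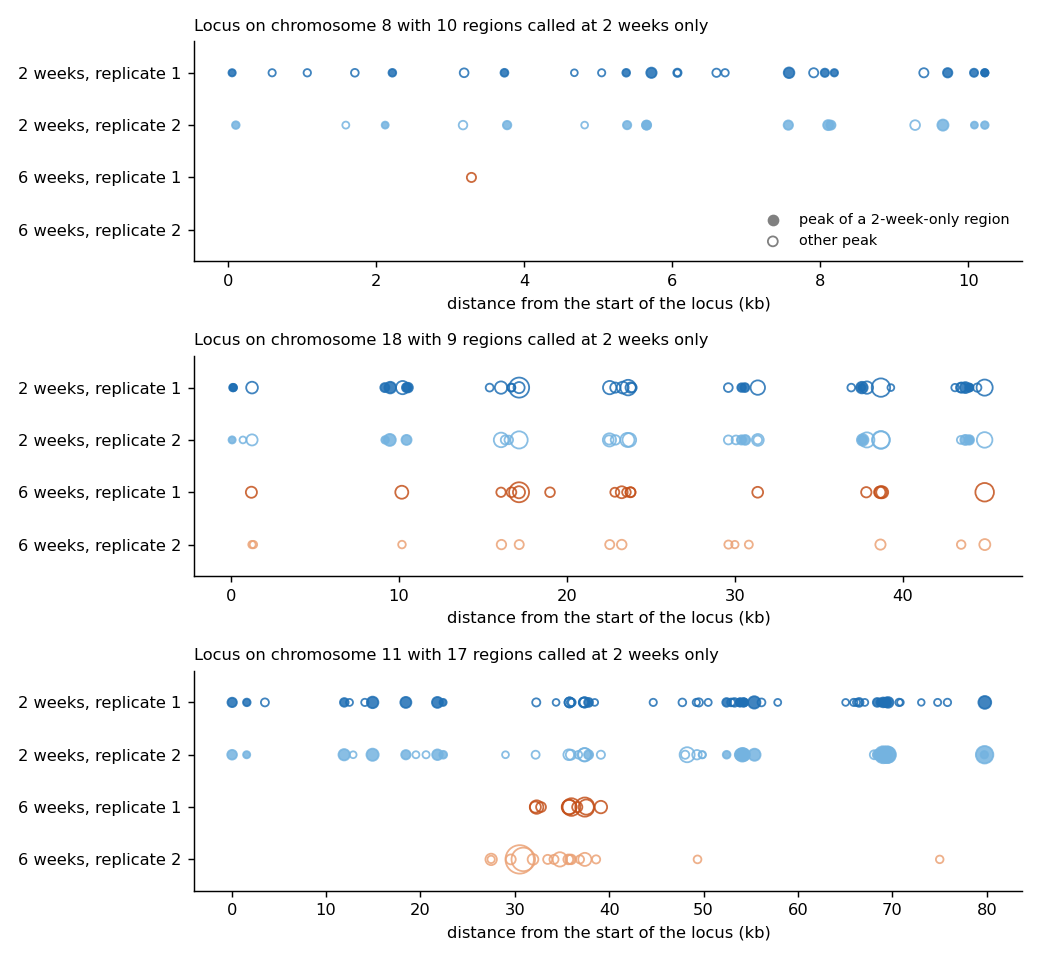
Peaks of the 4 lists in 3 loci. The x axis is the distance from the start of the locus in kb, each row is a library, filled circles are peaks of 2-week-only regions, open circles are other peaks, and circle area grows with the IP tags per 10 M up to 150. The chromosome 8 locus has 1 peak at 6 weeks, the chromosome 18 locus has 6-week peaks along its length, and in the chromosome 11 locus most 6-week peaks lie together.

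Among the 15 loci with the most 2-week-only regions, which held 108 of them, a first kind was nearly empty at 6 weeks. The locus on chromosome 8 from 124785151 to 124795425 had 10 of the regions within 10.3 kb. It had 24 and 16 peaks at 2 weeks, and 1 and 0 at 6 weeks. The single 6-week peak, from 124788386 to 124788486, had 18 IP tags and no control tag, and it belonged to no 2-week-only region. Both younger libraries thus had a row of peaks where the older ones had 1 peak in 1 library. Each of its regions was small, with 12 to 39 IP tags in replicate 1 and 10 to 43 in replicate 2. The highest by the lower replicate, from 124794759 to 124794923, had 28 and 43 IP tags over 7 and 10 control tags, with deposited folds of 5.0 and 3.15 over control. The next, from 124792669 to 124792779, had 39 and 27 IP tags over 5 and 6 control tags.

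On chromosome 1, the locus from 191466289 to 191481959 had 6 of the regions and no 6-week peak at all. It had 11 and 8 peaks at 2 weeks, and the nearest 6-week peak to any of its regions was over 173 kb away. Its regions were among the weakest described here, with 10 to 27 IP tags in replicate 1 and 9 to 20 in replicate 2. Control tags were as scarce, with 0 to 7 and 0 to 1, so the fold of each rested on few tags. By the lower replicate the 2 highest, from 191466289 to 191466457 and from 191476780 to 191476932, had 14 and 13 and then 17 and 15 IP tags.

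The locus on chromosome 7 from 142876490 to 142899865 had 8 of the regions, with 22 and 14 peaks at 2 weeks and 0 and 3 at 6 weeks. Its regions lay within 10.8 kb and had 15 to 30 IP tags in replicate 1 and 11 to 38 in replicate 2. The region from 142892288 to 142892444 had 28 and 37 IP tags over 7 and 1 control tags, and the one from 142881673 to 142881776 had 24 and 24 over 9 and 4. In this locus replicate 2 of the 6-week libraries had the only peaks of that age, with 9 to 26 IP tags each.

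Both chromosome X loci combined few 6-week peaks with an uneven pair of 2-week libraries. The one from 121299886 to 121365232 had 8 of the regions and 33 and 15 peaks at 2 weeks, against 0 and 3 at 6 weeks. The one from 120144916 to 120189610 had 6 of the regions and 52 and 11 peaks at 2 weeks, against 0 and 1. Replicate 1 alone called 38 regions of the second locus and replicate 2 alone called 2, so the 2-week libraries differed there from each other as well as from the older ones. The region from 121325257 to 121325369 showed the same within one region, with 141 IP tags in replicate 1 and 32 in replicate 2 over 24 and 7 control tags. The region from 121300126 to 121300255 went the other way, with 23 and 35 IP tags. In the second locus the regions from 120145650 to 120145885 and from 120149172 to 120149277 had 30 and 57 and then 47 and 37 IP tags.

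The locus on chromosome 4 from 118213360 to 118221297 differed from the others by its level. Its 5 regions lay within 1.43 kb at its far end and had 47 to 259 IP tags in replicate 1 and 51 to 246 in replicate 2. The region from 118220486 to 118220593 had 259 and 198 IP tags, and the one from 118221195 to 118221297 had 198 and 246. The control was high there too, at 91 and 38 tags and at 72 and 35 tags, so the fold was low, at 3.56 and 3.82 and at 3.44 and 5.15. The lowest fold of the lists was 3. The first region stood near it in both replicates, and the other in replicate 1 only. The 6-week lists had 2 and 1 peaks in this locus, all more than 4.6 kb from the 5 regions.

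A second kind of locus kept many peaks at 6 weeks. On chromosome 18, 3 of the 15 loci lay between 37090412 and 37856548. From 37090412 to 37135356, 9 of the regions stood among 38 and 31 peaks at 2 weeks and 18 and 13 at 6 weeks, and 5 regions were called in all 4 lists. From 37628042 to 37690066, 6 stood among 63 and 55 peaks at 2 weeks and 30 and 34 at 6 weeks, with 7 called in all 4. From 37815689 to 37856548, 5 stood among 49 and 44 peaks at 2 weeks and 30 and 46 at 6 weeks, with 13 called in all 4. In the last of these, 6-week replicate 2 had more peaks than 2-week replicate 2, so the peak counts of the ages overlapped. The 2-week-only regions were a small part of what was called there.

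In the first chromosome 18 locus the regions from 37099808 to 37099933 and from 37127934 to 37128080 had 49 and 52 and then 48 and 47 IP tags. The replicates were close in both. In the next, the region from 37638987 to 37639090 had 26 and 33 IP tags and lay 5 bp from a 6-week peak, and the one from 37637787 to 37637911 had 24 and 23. In the last, the regions from 37840709 to 37840882 and from 37822199 to 37822304 had 48 and 41 and then 42 and 28 IP tags. They lay 287 and 133 bp from a 6-week peak. At such distances the 6-week libraries had a peak beside the region rather than none in the neighbourhood.

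The loci on chromosomes 13, 3, 6 and 17 lay between these kinds. The chromosome 13 locus, from 89828198 to 89845087, had 6 of the regions within 4.72 kb, with 11 and 14 peaks at 2 weeks and 2 and 7 at 6 weeks. Of its 9 6-week peaks, 7 lay at the other end of the locus, from 89842676 on. Its regions from 89829366 to 89829498 and from 89829605 to 89829721 had 30 and 26 and then 23 and 29 IP tags. On chromosome 3, from 59118979 to 59134675, 6 of the regions stood among 14 and 14 peaks at 2 weeks and 4 and 4 at 6 weeks. The highest by the lower replicate, from 59122221 to 59122433, had 26 and 23 IP tags, and the one from 59123517 to 59123624 had 20 and 25. The replicate lists of each age thus gave the same number of peaks in that locus.

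On chromosome 6, from 116575182 to 116607383, 6 of the regions stood among 19 and 13 peaks at 2 weeks and 5 and 5 at 6 weeks. The region from 116586003 to 116586127 had 38 and 21 IP tags and lay 244 bp from a 6-week peak. The one from 116606536 to 116606713 had 15 and 16 IP tags and was one of 4 that lay close together, from 116606338 to 116607172, and over 19 kb from any 6-week peak. On chromosome 17, from 79227285 to 79254202, 5 of the regions stood among 10 and 13 peaks at 2 weeks and 4 and 8 at 6 weeks. The regions from 79252008 to 79252117 and from 79254100 to 79254202 had 20 and 33 and then 24 and 24 IP tags.

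The locus with the most 2-week-only regions began at the lowest peak position on chromosome 11, and another of the 15 ended at the highest on chromosome 9. The chromosome 11 locus, from 3000465 to 3080307, had 17 of the regions, with 56 and 42 peaks at 2 weeks and 10 and 17 at 6 weeks. Of its 27 6-week peaks, 25 lay between 3027904 and 3039632, and 1 of the 17 regions lay in that stretch. The 2-week-only regions stood on both sides of it. The highest, from 3080157 to 3080307, had 62 and 123 IP tags over 18 and 20 control tags, and the one from 3055782 to 3055909 had 57 and 53 over 19 and 2. Median IP tags were 24 and 45 over the 17 regions, so replicate 2 was the higher. The chromosome 9 locus, from 124065634 to 124073921, had 5 of the regions, with 12 and 15 peaks at 2 weeks and 2 and 4 at 6 weeks. Its regions from 124069703 to 124069807 and from 124069838 to 124069977 had 25 and 40 and then 21 and 47 IP tags. Across all 161 loci, 2.61% to 3.63% of a list's peaks had a start that another peak of the list had already taken, against 1.92% to 2.69% of all peaks, and 3 such peaks lay in the chromosome 11 locus.

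**Figure D2:**
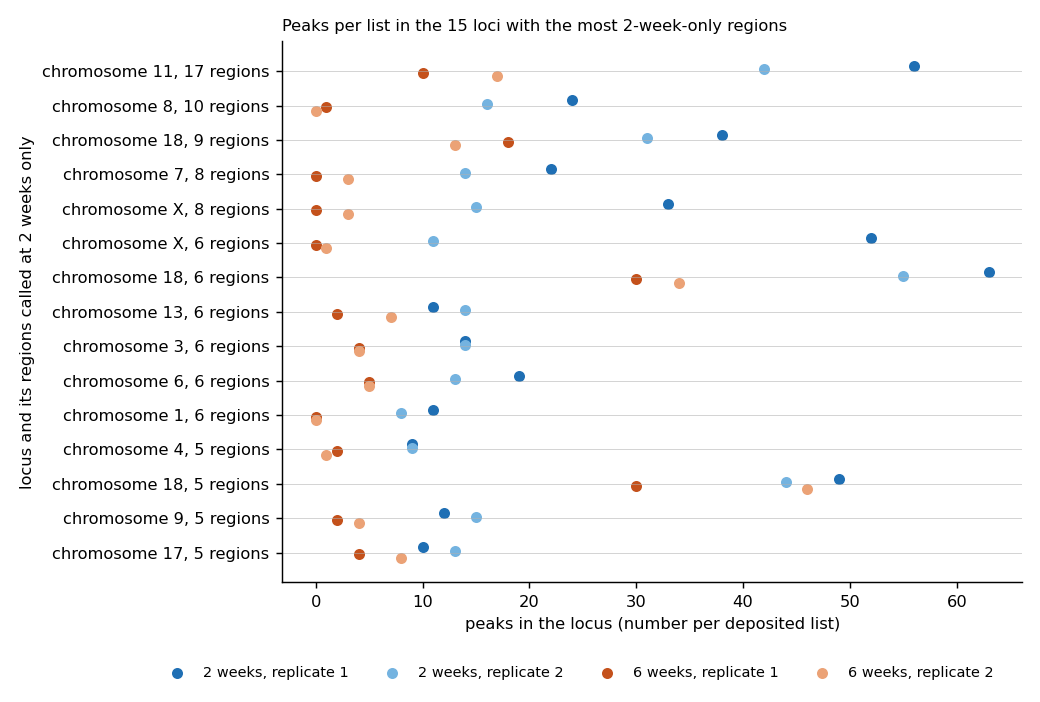
Number of peaks per deposited list (x axis) in the 15 loci with the most 2-week-only regions (y axis), 1 point per library. The 6-week points lie to the left of both 2-week points in 14 of the loci, and in the chromosome 18 locus with 5 regions 6-week replicate 2 lies between the 2-week replicates. The loci were chosen and ranked on these calls, so the order of the ages is in part set by the choice.

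Over all 585 regions, levels were modest. Median IP tags were 21 in replicate 1, with a range of 6 to 415, and 22 in replicate 2, with a range of 9 to 814. The control had medians of 4 and 2 tags. Per 10 M tags, the IP medians were 8.96 and 9.58. Between the replicates, 527 regions (90.1%) differed by 2-fold or less and 3 by more than 4-fold. Each region had to be called in both replicates, so this closeness is in part set by the choice. The deposited fold over control had medians of 6.88 and 8.55. It was 10 or more in both replicates for 115 regions and under 4 in both for 18. The lowest folds, just inside the lists' minimum, were 3 and 3.05. No control tag was found in either replicate for 22 regions (3.76%), and 182 had 3 or fewer control tags in sum. For these the fold rests on very few tags.

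The 3914 2-week-only regions elsewhere were much alike in level, with medians of 7.68 and 9.15 IP tags per 10 M and folds of 6.37 and 8.06. Strong regions were a smaller share in the loci: 9 of 585 (1.54%) had 50 or more IP tags per 10 M in both replicates, against 221 (5.65%) elsewhere. These shares were read from the contrast that chose the regions, and no test was made. Regions called in all 4 lists were higher. The 180 in the 161 loci had medians of 33.1, 33.3, 30.4 and 16.4 IP tags per 10 M (2-week replicates 1 and 2, then 6-week replicates 1 and 2). The 10019 elsewhere had 60.6, 66.6, 55.8 and 36.9. In the loci, then, the regions called at both ages were lower than such regions elsewhere in each library, and 6-week replicate 2 was the lowest library in both.

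**Figure D3:**
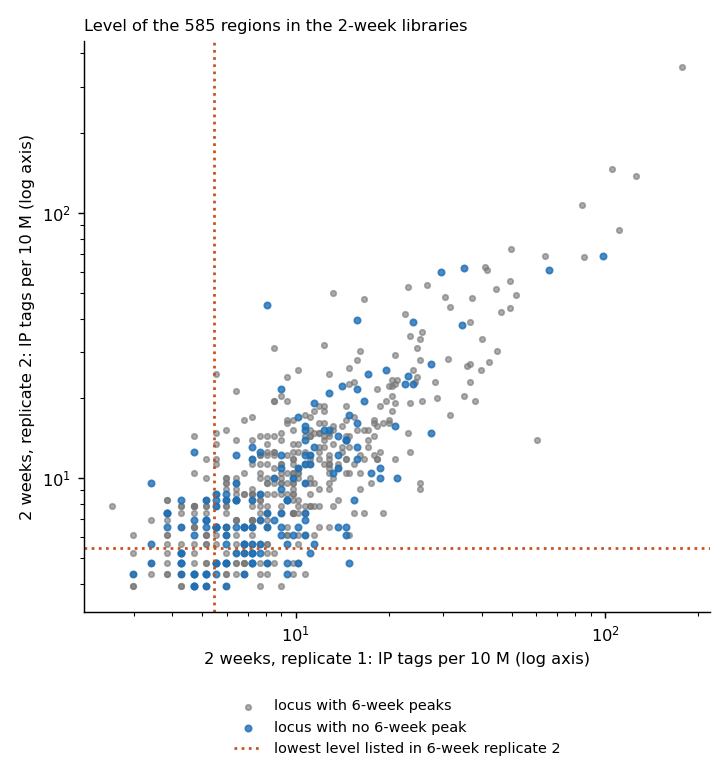
IP tags per 10 M of the 585 regions in 2-week replicate 1 (x axis) and replicate 2 (y axis), both on log axes. Blue points are regions of the 45 loci with no 6-week peak, grey points the others, and the dotted lines mark 5.45, the lowest level in the list of 6-week replicate 2. There were 440 regions (75.2%) above 5.45 in both replicates, against 65.9% of the 2-week-only regions elsewhere. A call also had to pass the fold and p minimums of a list, which the lines do not show.

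The 10 strongest of the 585 regions, ranked by the lower replicate, stood in several loci. On chromosome 7, the region from 29183655 to 29183759 had 415 and 814 IP tags over 155 and 154 control tags, the highest IP levels of all. Its fold was 3.35 and 3.87, and 6-week peaks lay 110 and 323 bp from it. On chromosome 4, the regions from 151488255 to 151488406 and from 151489157 to 151489258 had 246 and 336 and then 295 and 316 IP tags, with folds of 3.35 to 4.14 and a 6-week peak 89 and 95 bp away. All 3 were thus abundant in input, low in fold and next to a 6-week peak. A further 3 regions of the 10 strongest had 6-week peaks of both libraries within 135 bp. They were on chromosome 14 from 88867295, with 200 and 157 IP tags, on chromosome 8 from 71659430, with 150 and 158, and on chromosome 8 from 46136832, with 116 and 168.

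A locus on chromosome 7, from 69563232 to 69564996, was the only one holding any of the 10 strongest regions that had no 6-week peak. The nearest was over 38 kb away. Its region from 69563863 to 69564048 had 231 and 159 IP tags over 26 and 8 control tags, 11.11-fold and 14.57-fold. The region from 69564279 to 69564418 had 155 and 140 IP tags over 32 and 12, and the remaining one, from 69563626 to 69563729, had 69 and 138 over 25 and 21. Both 2-week libraries were high in all 3 regions.

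The regions with the highest fold, taken as the lower of the replicates, were weak ones. On chromosome 2, the region from 25051190 to 25051332 had 15 and 22 IP tags and no control tag, with deposited folds of 37.52 and 32.26. Its locus had no 6-week peak. The other 4 of the 5 highest lay on chromosome 9 from 54858706, chromosome 2 from 120986401, chromosome 15 from 95567085 and chromosome 7 from 120100698. They had 12 to 26 IP tags in replicate 1 and 19 to 23 in replicate 2, over 0 or 1 control tag in each library. A control of no tag counts as 0.5 tag in the deposited fold.

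The lists differed in the lowest level they held. The lowest IP level listed was 4.34 and 5.45 tags per 10 M in the 6-week lists, against 2.13 and 3.92 in the 2-week lists. When every list was brought to the IP depth of the shallowest IP library, 344 regions in 95 loci were found, and 313 of the 585 overlapped one of them. This setting only dropped called peaks, by their expected tags, and called none anew. Deeper controls were lowered to 15.8 M, but 6-week replicate 2 kept its 11.7 M, so control depth was not made equal. In this setting 12 loci were of the reverse kind, with several 6-week-only regions and no 2-week-only region.

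Many of the regions lay close to a 6-week peak. The nearest was a median of 2075 bp away, within 200 bp for 106 regions (18.1%) and over 10000 bp away for 181. Elsewhere, 22.2% of 2-week-only regions had a 6-week peak within 200 bp. When peaks up to 200 bp apart were merged as well, 258 regions in 71 loci were left, and 239 of the 585 overlapped one of them.

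The call patterns that the rule did not count gave a second view of the same loci. Regions called in a single list numbered 353 and 209 for the 2-week libraries and 93 and 109 for the 6-week libraries. That is 562 against 202, a ratio of 2.78, where elsewhere it was 18675 against 21825, a ratio of 0.856. In the 2346 other loci with 3 or more regions called in both 2-week lists, it was 3392 against 4921, a ratio of 0.689. More single-list regions from 2 weeks than from 6 weeks were found in 111 of the 161 loci, fewer in 28 and equal numbers in 22. Without the largest locus the counts were 529 against 188. Regions called in 3 lists leaned the same way, with 163 in both 2-week and 1 6-week list against 34 in both 6-week and 1 2-week list. Elsewhere these were 5172 against 2042. Regions of 1 locus can share RNA and all share the libraries' depth, and the loci were required to hold no 6-week-only region, so these counts are a description and not independent of the choice.

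**Figure D4:**
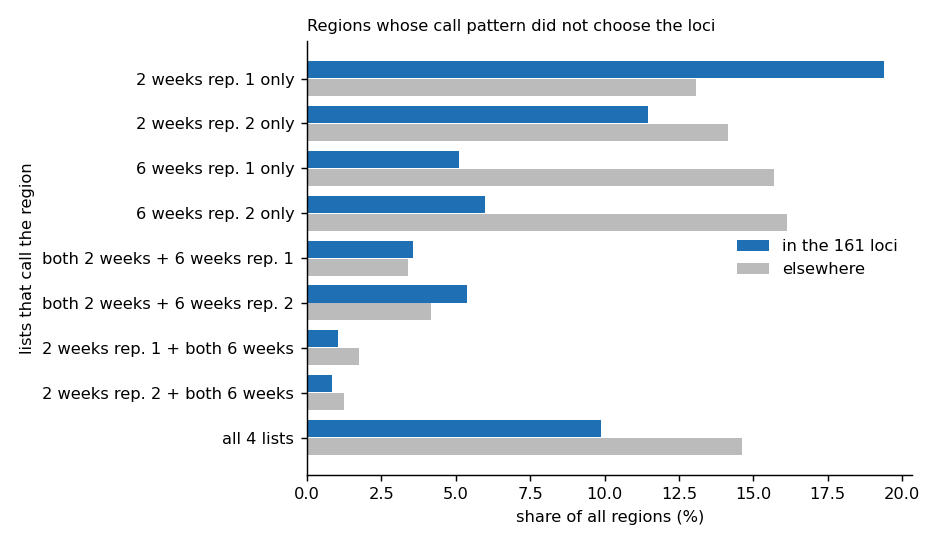
Share of all regions (x axis, percent) with each call pattern (y axis), in the 161 loci (blue) and elsewhere (grey). Single-list 2-week replicate 1 regions were 19.4% in the loci and 13.1% elsewhere, and those of replicate 2 were 11.5% and 14.2%. Single-list 6-week regions were 5.10% and 5.98% in the loci against 15.7% and 16.1%. The shares are of all regions, including the 2-week-only ones (not drawn), which were 32.1% in the loci and 5.71% elsewhere. The rule put these in the loci, which lowers every other share there.

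Whether RNA level or m6A enrichment changed in these loci between the ages could be tested only at regions that every list called. Each list had a single peak in 4577 regions, of which 65 lay in 42 of the 161 loci. A further 115 regions of the 161 loci were called in all 4 lists. They had more than 1 peak in a list and were not tested. Input tags, which follow the amount of RNA, were higher at 6 weeks in 1 of the 65 and lower in 2 (edgeR quasi-likelihood test, adjusted p under 0.05 over all 4577). Over all 4577, 1.11% were higher and 1.07% lower, so counts this small are no result about the loci. Scaled by total tags in place of TMM, which moves the median of all regions to -0.53, 1 of the 65 was higher and 8 were lower, against 0.459% and 8.08% of all. The median log2 change of input was -0.36 in the 65 against -0.03 over all, and it was below 0 in 45 of 65 (69.2%) against 51.6%. The 42 loci were chosen on calls of these same libraries, and regions of 1 locus can share RNA. The shift is therefore a description and not independent of the choice. Without 2-week replicate 1 the median was -0.22 against 0.00 over all, and without 6-week replicate 1, 37 of 65 were below 0 against 55.0% of all. An unadjusted p under 0.05 was reached by 11 of 65 (16.9%), 9 of them lower at 6 weeks, against 15.1% of all. The SE was larger here, with a median of 0.73 against 0.51. Median control tags were 15, 10, 3 and 3 in the 65 regions, in the same order of libraries. In 37 of 65 (56.9%) both 6-week libraries lay below both 2-week libraries in control tags per 10 M, against 48.0% of all.

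The enrichment of IP over input was called in none of the 65 regions by edgeR's interaction test, which called 0% of all 4577 in either direction. DESeq2 also called none. At an unadjusted p under 0.05, edgeR had 3 of the 65, all higher at 6 weeks, and DESeq2 had 0. The median log2 change of enrichment was 0.39 in the 65 and 0.02 over all, and it was below 0 in 18 of 65 (27.7%) against 48.1%. This rested on single libraries: without 6-week replicate 1 the median was 0.02 against 0.04 over all, with 32 of 65 below 0, and without 2-week replicate 1 it was 0.19 against 0.00. None of the 65 regions was thus shown to lose enrichment by 6 weeks, at a median SE of 0.72 on the log2 scale. The test was limited in showing a loss, since each region had to be called at 3-fold or more in both 6-week lists. A region that fell below that minimum could not enter it. How far this choice moved the median change was not tested. These 65 regions are not the 2-week-only ones, whose enrichment at 6 weeks was not measured.

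Among the 65, the smallest input p belonged to the region on chromosome 13 from 51519897 to 51520028, where input tags fell. Its locus, from 51504170 to 51521365, had 4 of the 2-week-only regions. Control tags were 156 and 102 in the 2-week libraries, then 17 and 14, or 53.2, 60.6, 10.8 and 12.0 per 10 M, and the ages did not overlap. The log2 change was -1.80 ± 0.42 (SE), with an adjusted p of 0.00809 in edgeR. IP tags went down alongside, from 818 and 1204 to 197 and 111, and the enrichment moved by 0.01 ± 0.47. Without 2-week replicate 1 or 2-week replicate 2 the log2 change was -1.79 in both cases, but the edgeR adjusted p was 0.787 and 0.468.

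The other fall was on chromosome 18 from 37976727 to 37976850, with 41 and 27 control tags in the younger libraries and 3 and 3 in the older. The log2 change was -2.23 ± 0.63 (SE; edgeR adjusted p = 0.0367), and its enrichment change of 1.71 ± 0.69 did not pass the test. The rise was on chromosome 6 from 127722199 to 127722324, with 3 and 2 control tags in the younger libraries and 12 and 5 in the older. The log2 change was 2.89 ± 0.81 (SE; edgeR adjusted p = 0.0361), and its enrichment change was -1.46 ± 0.84. Both calls rested on 3 or fewer tags per library at one age, and DESeq2 gave neither an adjusted p. With regions under 10 control tags in sum left out before the fit, the log2 changes were -2.22 and 2.91 and the edgeR adjusted p 0.0565 and 0.0549. The changes kept their sign without any single library, at -1.90 to -2.49 and 2.51 to 3.17, though the chromosome 18 call was lost without each library in turn (adjusted p from 0.0531 to 0.787) and the chromosome 6 call without each but 6-week replicate 2.

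The 6 loci with the most 2-week-only regions held 2 of the 65 regions, both on chromosome 18. From 37106432 to 37106558, control tags were 12, 4, 3 and 3, and the log2 input change was -0.13 ± 0.86 (SE). From 37135245 to 37135356 they were 20, 5, 8 and 6, and the change was 0.45 ± 0.62. Neither passed the test, and the width of both errors leaves room for a change of either sign.

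Of the other regions with the smallest enrichment p, none passed adjustment (edgeR adjusted p = 0.999 for each). The log2 change was above 0 at 3 of them: 1.93 ± 0.80 (SE) on chromosome 11 from 75345659 to 75345867, 2.54 ± 1.41 on chromosome 13 from 89829037 to 89829204, and 1.24 ± 0.70 on chromosome 5 from 64196285 to 64196420. At the chromosome 13 region the 6-week libraries had 17 and 11 IP tags over 1 and 0 control tags, so its change rests on almost no input. On chromosome X from 92623638 to 92623773 both 6-week controls had no tag, against 6 and 2 at 2 weeks, so no fold is given. Its IP tags were 25 and 19, then 30 and 12, and the ages overlapped. A log2 enrichment change below 0 was seen at 4: -0.80 ± 0.59 on chromosome 2 from 28309187 to 28309298, -0.72 ± 0.69 on chromosome 5 from 64199044 to 64199212, -0.57 ± 0.44 on chromosome 18 from 37980572 to 37980722, and -0.55 ± 0.48 on chromosome 5 from 122319051 to 122319183. The chromosome 5 regions from 64196285 and from 64199044, in 1 locus, thus had changes of opposite sign, both within about 2 SE of 0.

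**Figure D5:**
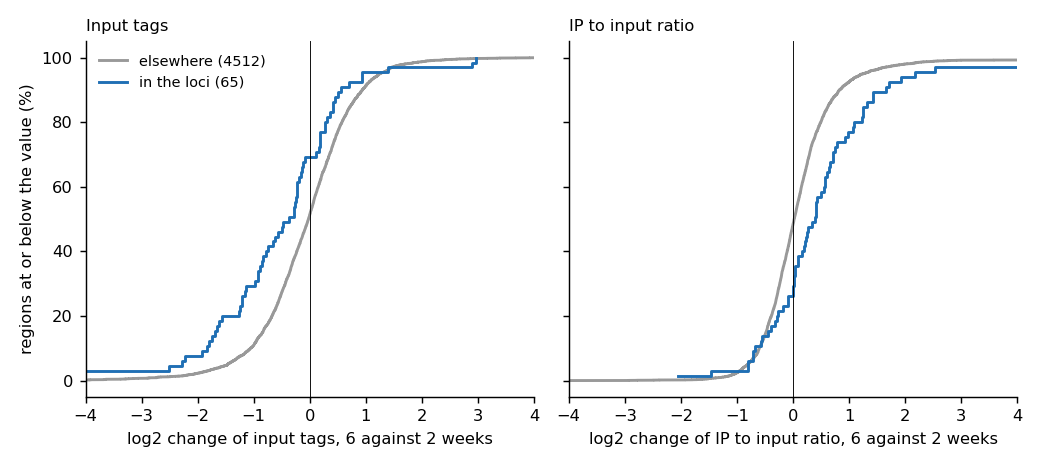
Cumulative share of the regions called in all 4 lists with 1 peak in each (y axis, percent) by log2 change from 2 to 6 weeks (x axis) of input tags (left) and of the IP to input ratio (right), for the 65 regions in the loci (blue) and those elsewhere (grey). The axis ends at 4 on each side, which leaves out 2 of the 65 in each panel, and over most of the range the blue curve lies to the left for input and to the right for the ratio.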

How the data were processed

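The deposited peak lists of 4 m6A-IP libraries were used, 2 per age. Per the submitters' processing notes, the tools were HOMER, Cufflinks 2.2.1, Bowtie2 2.2.3 and TopHat2 (2.0.13, 2.1.1), and the build was mm9. Peaks were called per library, per the file headers. Not given in the sources used here are the caller's settings and which input library each control came from. Per the file headers, the authors' columns hold a normalized tag count (a signal scaled by 1 constant per library), tag counts (IP or control scaled to the other), a fold ratio over control, a p-value, a findPeaks score and a focus ratio, a fraction that was not used.

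Whole tags were recovered from the scaled columns within 0.2 tag, and a control of 0.5 tag was set to 0. The deposited p-values followed a Poisson rule at the shallower of the IP and control depths. Depth is given with the results. Each SE was computed from the log2 change and the F statistic of its edgeR test, and so includes the estimated spread between libraries.

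Input and enrichment (the interaction of fraction and age with a sample term) were tested with edgeR 4.0.16's quasi-likelihood fit in R 4.3.3 over all 4577 regions with 1 peak per list, with TMM scaling and, for input, an offset for peak width. Each region used the tags of each library's own peak, and p-values were adjusted by Benjamini-Hochberg at 0.05. DESeq2 1.42.0 was an alternative. Tests were checked on simulated tags. With 2 libraries against 2, an exact two-sided test cannot give a p under 0.333.

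Replicates differed by more than sampling noise. Named were the 15 loci with the most 2-week-only regions (ties by summed lower-replicate signal), the 2 strongest regions of each, the 10 strongest of all and the 5 with the highest lower-replicate fold. Of the regions called in all lists, those past the input threshold (up to 10 per direction), the 5 smallest enrichment p-values per direction and all of the 6 largest loci were named. The loci, regions and lists were chosen with earlier results of these data known. The remaining samples of the series were not analysed here.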

Additional observations from a re-analysis of the deposited data

How the results depend on the processing

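The rule decided how many regions were found. Against 585 regions in 161 loci, merging peaks up to 200 bp apart gave 258 in 71, keeping peaks of 8-fold or more over control gave 67 in 21, and bringing all lists to the depth of the shallowest IP library gave 344 in 95. Asking for 2 or more regions per locus gave 1555 in 646, and 4 or more gave 258 in 52. Joining loci under 5000 or 20000 bp stayed within 1.5 times (490 in 141 and 758 in 208). Leaving out each library in turn gave 720 to 3612 regions in 208 to 926 loci. Most of the excess came without a 2-week library: 2645 regions in 702 loci without replicate 1 and 3612 in 926 without replicate 2, since the age then rests on 1 list.

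Input calls in the 65 shared regions were 1 higher and 2 lower. DESeq2, which gave an adjusted p for 8 of the 65, had 0 and 1, total-tag scaling 1 and 8, regions with 10 or more control tags in sum 0 and 1, and the 12 regions with peak starts within 20 bp 0 and 0. Leaving out each library in turn left between 0 and 1 higher and between 0 and 2 lower calls, and 0 lower without 2-week replicate 1 or 2-week replicate 2. Total-tag scaling moved the median log2 change of all regions to -0.53 and that of the 65 to -0.86. Same-numbered libraries of the ages hardly deviated together (r = 0.05 for input and 0.03 for IP), so they share only a number. With the replicate number as a block, the input calls were 1 and 2, and no call changed. Enrichment had 0 calls under every alternative run. The median changes of the 65 and the changes of the named shared regions kept their sign under every alternative that gave a value, but the median enrichment was 0.02 without 6-week replicate 1. With 6-week replicate 1 or 6-week replicate 2 left out, loci of the reverse kind outnumbered those described (681 against 208 and 481 against 232). The 2-week-only regions of the loci had medians of 21 and 22 IP tags and of 4 and 2 control tags. The 6-week lists were shallower, and depth and age cannot be told apart here. How much of the difference in calls went with depth was not tested.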
